A study of Mus musculus with 8 samples.

Results

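The collagen-rich stroma cells of the developing mouse kidney were chosen from a single-cell RNA-seq pool by their own counts. A cell was included when it held at least 25 unique molecular identifiers (UMIs, each standing for 1 captured transcript) of *Col1a1*, *Col3a1* and *Dcn* together. It also had to hold fewer than 6 UMIs of the endothelial genes *Pecam1*, *Cdh5*, *Kdr*, *Flt1* and *Emcn*. This rule found 245 stroma cells among the 6495 cells that could be assigned to a mouse. The levels of these 8 genes chose the cells, and they are therefore given below as a description, without a test. Kidneys of 4 male embryos of the pool were analysed, at embryonic day 17.5 by the labels, whereas the methods of the study give a later day. In mice 1 and 2 (*Trim28*Δ/Δ), a cre recombinase fused to EGFP and driven by the *Six2* promoter removed the floxed segment of both *Trim28* alleles. Mice 3 and 4 (*Trim28*f/f) carried the floxed alleles. The *Six2* promoter is active in nephron progenitor cells and not in most stroma, so the stroma cells are mainly neighbours of recombined cells. *Trim28* encodes a scaffold protein that is recruited by zinc finger proteins to silence transposable elements and imprinted regions.

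Renal stroma is the mesenchyme between the nephrons and the collecting duct system. Cells of the *Foxd1* lineage give rise to the cap-side (nephrogenic zone), cortical and medullary interstitium, to mural cells of vessels and to mesangium, whereas *Tbx18*-positive mesenchyme surrounds the ureter. Stromal cells lay down fibrillar collagen, and through retinoic acid, Wnt, Fat4 and other signals they act on nephron progenitors and on branching of the ureteric bud.

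The mouse of each cell was read from a lipid-anchored DNA tag (cell multiplexing oligonucleotide, CMO) put on the cells of each kidney before pooling. The deposited list of tags names 4 of them, whose sequences are shown because every value per mouse rests on them.

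CMO305, mouse 1, *Trim28*Δ/Δ: CGCGATATGGTCGGA
CMO308, mouse 2, *Trim28*Δ/Δ: CGGATTCCACATCAT
CMO306, mouse 3, *Trim28*f/f: AAGATGAGGTCTGTG
CMO307, mouse 4, *Trim28*f/f: AAGCTCGTTGGAAGA

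Of 3921239 barcodes in the pool, 21386 held at least 6890 UMIs and 19273 were kept. Mice 1 to 4 were given 1168, 1289, 2490 and 1548 cells. A further 3603 cells carried a tag that the list does not name, and 9175 had no tag or several tags. These cells were left out. All cells came from 1 gene expression library, so that no barcode was shared between libraries and all mice shared the same free RNA. Barcodes of 10 to 100 UMIs, too shallow to be cells, gave the composition of this free RNA.

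Mouse 1 held 56 stroma cells with 719660 UMIs, mouse 2 held 51 with 724589, mouse 3 held 104 with 1459543 and mouse 4 held 34 with 497520. The stroma cells had a median of 12140 UMIs and 3694 genes, and the median of all other assigned cells was 17390.5 UMIs. The UMIs of the rule ranged from 25 to 930 per stroma cell around a median of 52. Just inside the threshold, 44 cells held 25 to 29 of these UMIs, and just outside it 72 cells held 20 to 24. A further 16 cells were set aside by the limit on endothelial genes alone.

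The label of these cells was checked with stromal genes that the rule did not use. After each cell was thinned to 6800 UMIs, *Col1a2*, the partner chain of *Col1a1* in type I collagen, was found in 99.59% of stroma cells and in 7.661% of nephron progenitor, 5.714% of proximal tubule and 10.02% of endothelial cells. *Pdgfra*, a receptor of mesenchymal cells, was found in 64.9% of stroma cells and in at most 1% of the other 3 sets. *Postn*, a matricellular protein, was found in 40.41% of stroma cells against 1.21%, 0.8571% and 1.541%. *Penk*, which encodes proenkephalin, was found in 52.24% of stroma cells against 1.613%, 2.429% and 2.312%. The transcription factor *Tcf21* was found in 82.04% of stroma cells and in 18.95% of nephron progenitor cells, and *Meis1* in 64.08% and 25.4%. The small proteoglycan *Lum* was found in 38.37% of stroma cells and in at most 0.5714% of the other 3 sets. *Foxd1*, the founder gene of the stromal lineage, was found in 20.82% of stroma cells but also in 15.73% of nephron progenitor cells. *Six2*, which marks nephron progenitors, was found in 1.224% of stroma cells against 73.39% of nephron progenitor cells, which were themselves chosen on *Six2*, *Cited1* and *Eya1*, and *Ptprc* of leukocytes in 2.041%. *Wnt4*, a marker of medullary stroma and of early nephrons, was found in 22.45% of stroma and 19.35% of nephron progenitor cells. The stromal markers thus stood higher in stroma than in the other 3 sets, but *Foxd1* and *Wnt4* were close to their shares in nephron progenitors.

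**Figure D1:**
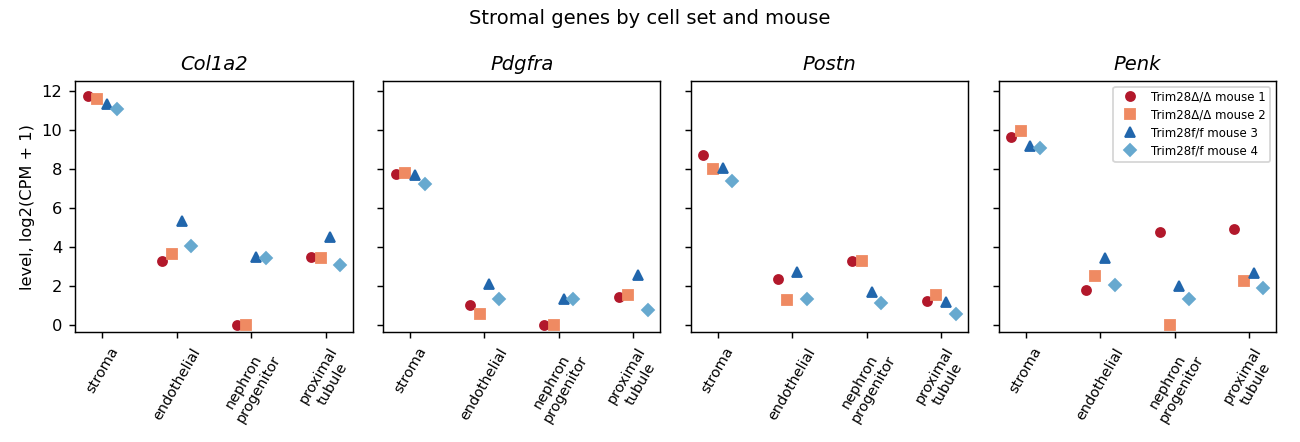
Level of *Col1a2*, *Pdgfra*, *Postn* and *Penk* in each cell set of each mouse, as log2(CPM + 1) of summed UMIs, where CPM is UMIs divided by the set's total and scaled to a common total. The stroma cells of all 4 mice stand above the endothelial, nephron progenitor and proximal tubule cells for the 4 genes, and the nephron progenitor sets of mice 1 and 2 hold only 5 and 4 cells.

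By level, the genes that stood highest in stroma over the other assigned cells were *Dcn*, *Col1a1* and *Col3a1*, all of the rule, with log2 ratios of 6.3, 6.13 and 6.0. Other high genes included *Col1a2* (5.64), *Col14a1* (4.81), *Col6a1* (4.64), *Penk* (4.63) and smooth muscle actin *Acta2* (4.50). Transcripts of other cells were also present. *Hba-a1*, an alpha globin of red cells, was found in 76.33% of stroma cells, *Slc34a1* of proximal tubule in 28.57% and *Aqp2* of collecting duct in 20.82%. The share for *Aqp2* in the other 3 sets lay between 12.43% and 20.81%, so that it was at the level of background. At least 3 UMIs of the epithelial genes *Epcam* and *Cdh1* were held by 13, 6, 16 and 6 stroma cells of mice 1 to 4. Scrublet, a doublet caller, marked 21 stroma cells (8.571%).

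When the stroma cells were clustered without the genes of the rule, 5 clusters were obtained. A cluster was named only from its markers, and the genes that lead a cluster are a description of it. Cluster 1 (64 cells) was led by the mitotic genes *Ube2c*, *Prc1*, *Cenpf*, *Hist1h2ap* and *Nusap1*. It held 3 of 6 markers of nephrogenic zone stroma (*Fibin*, *Gdnf* and *Dlk1*) above the other clusters, but also 6 of 7 markers of proximal tubule, and it was left unnamed. Cluster 2 (63 cells) was led by *Hba-a2*, *Hba-a1* and *Hbb-bt* with *Slfn5* and *Hsd11b1*, and was left unnamed. Cluster 3 (53 cells) was ureteric mesenchyme-like, with 5 of 6 markers higher (*Tbx18*, *Actg2*, *Myh11*, *Acta2* and *Sfrp2*). It also had 4 of 8 markers of medullary stroma (*Wnt4*, *Alx1*, *Penk* and *Nkd1*) and 4 of 10 mural markers higher (*Acta2*, *Tagln*, *Myh11* and *Des*), and 2 markers of ureteric mesenchyme and 2 of mural cells were among its 10 leading genes. Its leading genes *Actg2*, *Cnn1*, *Fbxl22* and *Myh11* encode parts of the smooth muscle contractile apparatus or of the sarcomere, and *Car3* encodes a carbonic anhydrase. Summed over its cells, *Actg2* reached 490.5 CPM. Cluster 4 (29 cells) had 6 of 10 mural markers higher (*Rgs5*, *Cspg4*, *Notch3*, *Pdgfrb*, *Mcam* and *Ren1*), but not *Acta2*, *Tagln*, *Myh11* and *Des*. Its cells held a median of 269 UMIs of the rule, and *Col1a2* stood at 10890 CPM in it against 1472 to 3184 CPM in the other clusters. It also had 7 of 10 general stroma markers higher, with *Postn*, *Col1a2* and *Lum* among them, and 3 of 8 endothelial ones (*Kdr*, *Flt1* and *Tie1*), and *Ren1* was the 1 mural marker among its 10 leading genes. It was led by *Ren1*, *Igf1*, *Prss35*, *Angpt2* and *Eln*, but 1 cell of mouse 3 gave 1407 of the 1732 *Ren1* UMIs of all stroma cells (81.24%). With mural and general stroma markers both higher, cluster 4 was left unnamed. Cluster 5 (36 cells) was led by *Nts*, *Pf4*, *Slc12a1*, *Lrriq1* and *Aqp2*, and 1 cell of mouse 3 gave 101 of the 125 *Pf4* UMIs of all stroma cells (80.8%). The immune markers *Ptprc* and *Lyz2* were higher in it, and the myeloid genes *Fcer1g*, *C1qc*, *Tyrobp* and *F13a1* were among its 15 leading genes. It held 5 of 8 markers of medullary stroma (*Wnt4*, *Lef1*, *Cdkn1c*, *Alx1* and *Penk*) together with both markers of the loop of Henle and 4 of 7 of ureteric bud and collecting duct, and it was left unnamed.

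**Figure D2:**
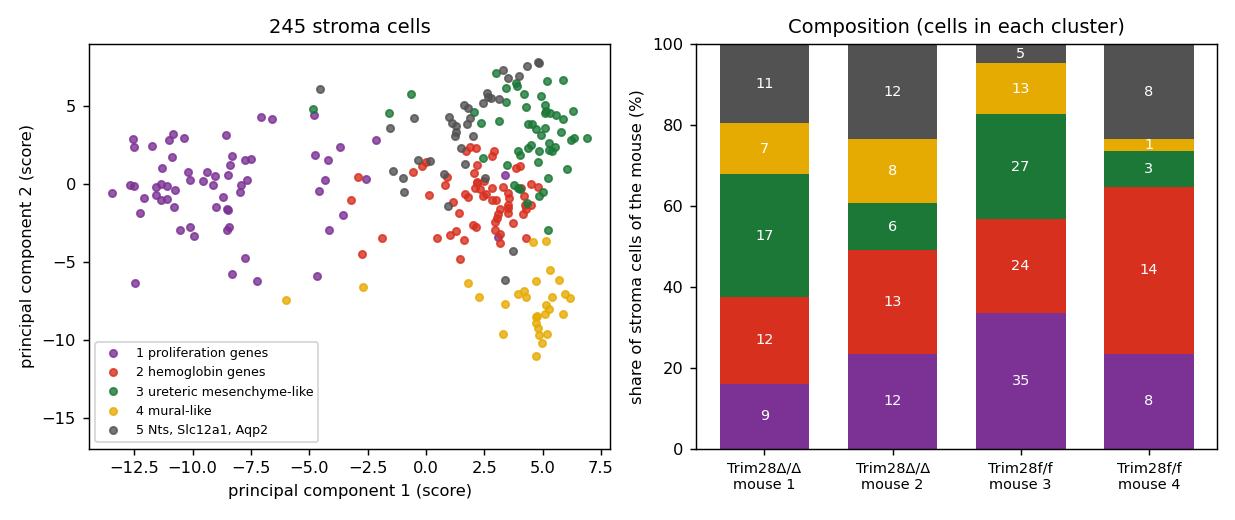
Left, the 245 stroma cells by their scores on the first 2 principal components, coloured by cluster. Right, the share of each mouse's stroma cells in each cluster in percent, with cell numbers in the bars. Mouse 4 has 3 ureteric mesenchyme-like cells and 1 cell of cluster 4, against 27 and 13 in mouse 3 of the same genotype. The legend marks cluster 4 as mural-like, a name that its markers leave unsettled.

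The composition of the stroma varied widely within a genotype. The ureteric mesenchyme-like cluster took 17 of the 56 stroma cells of mouse 1 and 6 of 51 in mouse 2, 27 of 104 in mouse 3 and 3 of 34 in mouse 4. Its mean share was 21.06% ± 13.15 (SD, n = 2) in *Trim28*Δ/Δ and 17.39% ± 12.12 (SD, n = 2) in *Trim28*f/f mice, with an exact permutation p of 0.6667 (two-sided). The exact permutation p was 0.6667 for clusters 1, 2 and 4 also and 1 for cluster 5, and with 2 mice against 2 it cannot be below 0.3333. The contractile genes stood in the order of this cluster's shares. *Actg2* stood at 250.6, 4.26, 92.8 and 2.08 CPM in the stroma of mice 1 to 4, so that mice 1 and 3 were high and mice 2 and 4 low. *Myh11* had the same order, with 381.7, 8.51, 218.9 and 6.24 CPM.

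Stroma cells made up 4.795% (95% exact binomial interval 3.642 to 6.181) of the assigned cells in mouse 1 and 3.957% (2.96 to 5.17) in mouse 2. In mouse 3 they made up 4.177% (3.425 to 5.038), and in mouse 4 they made up 2.196% (1.526 to 3.056). Mouse 4 was thus low and mouse 3 lay between the *Trim28*Δ/Δ mice. The mean was 4.376% ± 0.5925 (SD, n = 2) in *Trim28*Δ/Δ and 3.187% ± 1.4 (SD, n = 2) in *Trim28*f/f mice, and the difference was smaller than the SD of the latter (exact permutation p = 0.6667, two-sided). The order depended on the cells counted. With a tag share of at least 90% the shares were 8.628%, 6.055%, 5.396% and 2.987% in mice 1 to 4, a difference of 3.15 percentage points without overlap. The genotypes did not overlap at 5% mitochondrial UMIs (difference 2.1) and at 50 UMIs of the rule (1.246) either, each with the smallest possible exact permutation p of 0.3333. With at least 15 UMIs of the rule the difference was 0.1865 percentage points. A looser rule on thinned cells, which kept 72, 65, 156 and 61 cells of mice 1 to 4, gave 0.5007. The difference was 0.77 without mouse 1, 2.179 without mouse 3 and 0.1988 without mouse 4, against 1.189 with all. The intervals cover counting error only, and the share also depends on how well each cell type came through dissociation and on the minimum of 6890 UMIs.

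To ask whether stroma gene expression differed between genotypes, the UMIs of the stroma cells were summed per mouse and compared between 2 and 2 mice with edgeR. *Trim28* itself was at 99.4, 107.8, 97.8 and 122.8 CPM in mice 1 to 4, a log2 change of -0.07 (SE 0.24, adjusted p = 0.996), with overlapping genotypes. A positive log2 change stands for a higher level in *Trim28*Δ/Δ mice, and CPM values are scaled by the TMM method. Since the counted reads come from transcript ends and not from the floxed exons, this is a level of transcript and not a reading of the deletion itself. *Six2* had 1, 4, 3 and 2 UMIs and was too low to test.

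Of 8199 genes tested, 0 passed an adjusted p of 0.05 (0%), 475 had an unadjusted p under 0.05 (5.79%), of which 206 were higher (2.51%) and 269 lower (3.28%) in *Trim28*Δ/Δ. Without overlap of the genotypes, 1425 genes were higher (17.4%) and 1387 lower (16.9%). DESeq2, run as an alternative, called 4 of 17014 genes (0.0235%), namely *Aqp2*, *Cdkn1c*, *Slc12a1* and *Abcc9*, with 140 at an unadjusted p under 0.05 (0.823%). Every stroma value below is therefore a measurement that did not pass in the main edgeR fit. Without Scrublet doublets edgeR called 3 of 7521 genes, with *Cdkn1c* (adjusted p = 0.00833) and *Abcc9* (adjusted p = 0.0279) among them. The edgeR count depended on single mice and was 27 without mouse 1, 52 without mouse 2, 192 without mouse 3 and 480 without mouse 4. In sums over cells, fewer cells of a stromal zone and less RNA per cell cannot be told apart.

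The smallest p belonged to *Abcc9*, which encodes the sulfonylurea receptor subunit of an ATP-sensitive potassium channel known from pericytes and smooth muscle. It stood at 15.9, 17.0, 82.9 and 95.7 CPM in mice 1 to 4, a log2 change of -2.41 (SE 0.31, adjusted p = 0.101). Both *Trim28*Δ/Δ mice were low. The 10 genes described first were picked among those whose genotypes did not overlap, so that the lack of overlap was set by this choice. *Kcnj8*, the pore subunit of the same channel, showed the same order with 33.1, 35.5, 123.3 and 108.2 CPM, a log2 change of -1.76 (SE 0.26, adjusted p = 0.107). The genes are neighbours on chromosome 6 of GRCm38, *Kcnj8* at 142564837 to 142571614 and *Abcc9* at 142587862 to 142702315, both on the minus strand. *Abcc9* UMIs were found in 8, 9, 44 and 16 stroma cells of mice 1 to 4 and no cell gave more than 10.22% of them. They were not confined to 1 cluster, since clusters 1 to 5 stood at 70.6, 78.8, 18.2, 41.1 and 38.8 CPM. The log2 change of *Abcc9* was -0.98 when cells with at least 15 UMIs of the rule were counted, and -1.22 with the looser rule on thinned cells.

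*Cdkn1c*, an imprinted cell cycle inhibitor (p57) that also marks medullary stroma, stood at 1328, 1299, 661 and 441 CPM, a log2 change of 1.24 (SE 0.18, adjusted p = 0.107). Both *Trim28*Δ/Δ mice were high. The mice were furthest apart in cluster 5, where *Cdkn1c* was at 4022, 3145, 1362 and 575 CPM. In this cluster mice 3 and 4 had only 5 and 8 cells, and *Slc12a1* of the loop of Henle stood at 18.65, 38.76, 1500 and 552 CPM, whose part in the *Cdkn1c* values was not tested. Cluster 2 had 480.1, 450.7, 406.2 and 354.3 CPM. The genotypes overlapped in cluster 1 with 303.2, 480.4, 516.2 and 399.5 CPM, and in cluster 3 mouse 3 was the highest with 627.8, 684.4, 992 and 496 CPM. In cluster 4 the level was 509.1, 587.9 and 407.4 CPM in mice 1 to 3, and the 1 cell of mouse 4 had 0 UMIs. Over all alternatives with other cells, tools and mice, the log2 change of *Cdkn1c* was positive.

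*Rspo3*, a secreted enhancer of Wnt signalling, had only 3 UMIs in each *Trim28*Δ/Δ mouse and stood at 4.32, 4.26, 42.5 and 31.2 CPM, a log2 change of -3.12 (SE 0.47, adjusted p = 0.107). *Dkk1*, a secreted Wnt inhibitor, stood at 1.44, 15.6, 65.2 and 74.9 CPM, a log2 change of -2.99 (SE 0.54, adjusted p = 0.253). Most *Dkk1* UMIs were in cluster 1, and its log2 change was -1.23 with at least 15 UMIs of the rule and -5.46 without mouse 2. The nuclear receptor *Rora* stood at 10.1, 15.6, 49.6 and 49.95 CPM, a log2 change of -1.94 (SE 0.37, adjusted p = 0.268). For these 3 genes both *Trim28*f/f mice were high.

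Of the remaining genes among the 10 with the smallest p, a pair are known from other cell types. *Slc12a1*, the salt transporter of the loop of Henle, stood at 30.3, 52.5, 143.1 and 183.2 CPM, a log2 change of -1.96 (SE 0.30, adjusted p = 0.107), and the free RNA held 196.2 CPM of it. *Aqp2*, the water channel of collecting duct, stood at 115.2, 316.3, 28.3 and 33.3 CPM, a log2 change of 2.84 (SE 0.45, adjusted p = 0.107). A single cell of mouse 2 gave 198 of its 359 UMIs (55.15%), and the free RNA held 216.3 CPM. The summed markers of the cell types of *Slc12a1* and *Aqp2* include these genes themselves and are therefore no separate reading. The 2 markers of the loop of Henle summed to 37.5, 56.6, 142.5 and 184.9 CPM, and the 7 of ureteric bud and collecting duct to 471.1, 796.4, 339.8 and 373.8 CPM. The other loop marker, *Umod*, had 20 UMIs in all stroma cells. After thinning it was found in 7.143%, 3.922%, 0.9615% and 8.824% of the stroma cells of mice 1 to 4, with overlap. The changes of *Slc12a1* and *Aqp2* depended on which cells were counted. The log2 change of *Slc12a1* was -0.27 without Scrublet doublets and -0.30 without the cells with at least 3 UMIs of *Epcam* and *Cdh1*, and that of *Aqp2* was 0.38 without the latter cells and 0.31 when at most 5% mitochondrial UMIs were allowed. *Fmo2*, a flavin monooxygenase, stood at 57.6, 35.5, 10.6 and 10.4 CPM (log2 change 2.12, SE 0.40, adjusted p = 0.268), and its level in proximal tubule cells was 92.4 CPM. Within the stroma it stood at 186.4 CPM in cluster 4 and at 1.69 to 12.7 CPM in the other clusters, and 25.88% of its UMIs came from 1 cell of mouse 1. The mitochondrial gene *mt-Co3* stood at 8843, 8406, 6949 and 7089 CPM (log2 change 0.30, SE 0.06, adjusted p = 0.293). The median share of mitochondrial UMIs per stroma cell was 3.7%, 3.498%, 2.798% and 3.164% in mice 1 to 4. In all other assigned cells it was 4.101%, 3.847%, 2.892% and 3.486%, and its part in the *mt-Co3* values was not tested.

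**Figure D3:**
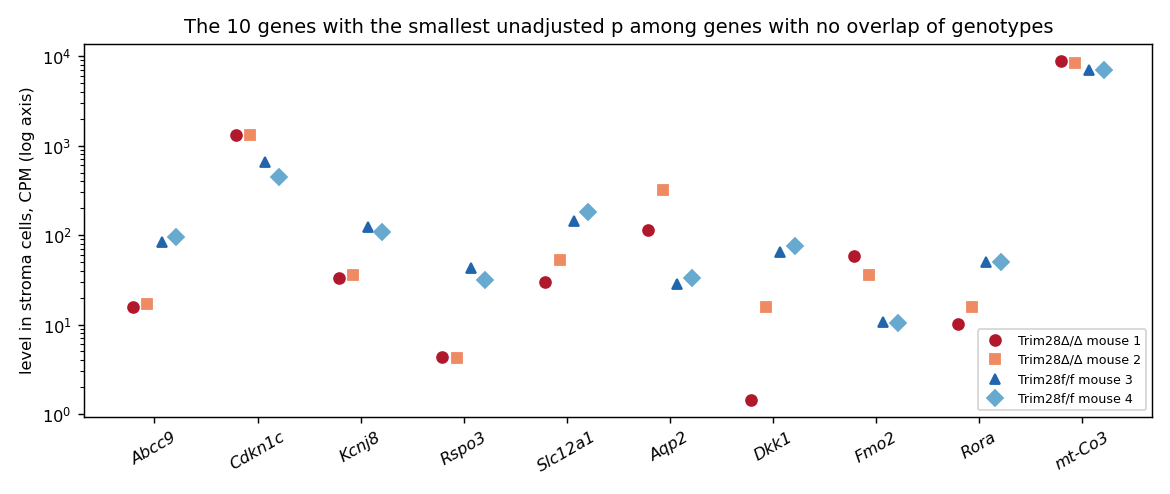
Level in the stroma cells of each mouse, in CPM on a log axis, of the 10 genes with the smallest unadjusted p among those whose genotypes did not overlap. *Abcc9*, *Kcnj8*, *Rspo3*, *Slc12a1*, *Dkk1* and *Rora* are lower and *Cdkn1c*, *Aqp2*, *Fmo2* and *mt-Co3* higher in both *Trim28*Δ/Δ mice, and none passed an adjusted p of 0.05.

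The markers of stromal zones were unevenly placed. Of 7 tested medullary markers, 7 had a log2 change above 0, 6 were higher without overlap and 3 were at an unadjusted p under 0.05, with a median log2 change of 0.69 against 0.00 over all tested genes. The shares over all tested genes were 17.4% higher without overlap and 2.51% higher at that p. *Penk* stood at 822.5, 1023, 592.3 and 549.5 CPM in mice 1 to 4 (log2 change 0.69, SE 0.15, adjusted p = 0.371), with a log2 change of 0.21 with the looser rule on thinned cells. *Lef1*, a transcription factor of Wnt signalling, stood at 30.3, 39.7, 14.9 and 10.4 CPM (log2 change 1.37, SE 0.38, adjusted p = 0.572), and 0.68 with at least 15 UMIs of the rule. Both were higher in the *Trim28*Δ/Δ mice without overlap. *Wnt4*, a ligand of medullary stroma and of early nephrons, stood at 141.2, 123.4, 121.9 and 18.7 CPM (log2 change 0.73, SE 0.51, adjusted p = 0.908), and here only mouse 4 was low. *Wnt5a* was at 122.4, 88.0, 75.8 and 62.4 CPM. The median of the medullary markers stayed above 0 in all alternatives examined. The summed medullary markers were at 2498, 2629, 1554 and 1120 CPM in stroma and at 434.5 CPM in the free RNA.

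Markers of the cortical and nephrogenic zones were mostly on the other side. Of 7 tested cortical markers, 4 were lower and 1 higher at an unadjusted p under 0.05, with a median of -1.44, and of 5 tested markers of the nephrogenic zone, 3 were lower and 1 higher, with a median of -1.52. At that p, 3.28% of all tested genes were lower and 2.51% higher. The lists share *Dlk1*, *Fibin* and *Smoc2*. Summed, the nephrogenic zone markers stood at 241.8, 218.1, 240.5 and 329.6 CPM in the stroma of mice 1 to 4, with overlap of the genotypes. The fourth lower cortical marker was *Ren1*, which overlapped between genotypes, rested on 1 cell of mouse 3 (81.24% of its UMIs) and had a log2 change of 1.07 without mouse 3. *Igfbp5*, which binds insulin-like growth factors, stood at 149.8, 102.1, 238.8 and 455.8 CPM (log2 change -1.44, SE 0.31, adjusted p = 0.371). *Fibin*, a secreted protein, stood at 31.7, 22.7, 58.1 and 129.0 CPM (log2 change -1.68, SE 0.42, adjusted p = 0.515). *Dlk1*, an imprinted transmembrane protein, stood at 11.5, 15.6, 35.4 and 45.8 CPM (log2 change -1.52, SE 0.38, adjusted p = 0.515). *Gdnf*, which attracts the ureteric bud, had 3, 9, 25 and 19 UMIs (log2 change -1.54, SE 0.60, adjusted p = 0.790). Each of these genes was lower in both *Trim28*Δ/Δ mice, whereas *Smoc2*, a matricellular protein, overlapped with 168.5, 68.1, 73.7 and 33.3 CPM. *Foxd1*, with 27.4, 96.5, 52.4 and 74.9 CPM, overlapped too. The size of the cortical median and the sign of the nephrogenic one depended on the rule. The cortical median was below 0 in all alternatives examined, at -0.02 with at least 50 UMIs of the rule, -0.14 with at least 15 and -0.34 without mouse 3. For the nephrogenic zone the median was 0.80 at 50 UMIs, where 2 markers could be tested and both were above 0. It was -0.65 at 15 UMIs and -0.71 with the looser rule on thinned cells.

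The 10 mural markers held 5 genes that were lower at an unadjusted p under 0.05 and 0 that were higher, with a median of -0.35. At that p, 3.28% of all tested genes were lower and 2.51% higher. *Rgs5*, a pericyte regulator of G protein signalling, stood at 138.3, 215.6, 374.1 and 335.1 CPM (log2 change -1.01, SE 0.23, adjusted p = 0.408). *Pdgfrb*, the receptor through which pericytes are recruited, stood at 102.3, 129.1, 178.5 and 210.2 CPM (log2 change -0.74, SE 0.22, adjusted p = 0.641). Both were lower in both *Trim28*Δ/Δ mice, as were *Cspg4* and *Mcam*. The fifth, *Ren1*, stood at 43.2, 18.4, 1192 and 14.6 CPM. The markers *Acta2*, *Tagln*, *Myh11*, *Notch3* and *Des* overlapped. The median of the list was 0.16 without mouse 3. For ureteric mesenchyme, 0 of 5 markers tested in edgeR were at an unadjusted p under 0.05, and DESeq2, which tested more genes, had 0 too. The median of 0.34 turned with single mice. Without mouse 1 it was -2.14, without mouse 2 it was 0.85, without mouse 3 it was 4.92 and without mouse 4 it was -0.19. With at least 50 UMIs of the rule it was -1.02.

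The extracellular matrix genes differed by list, and the rule itself selects on collagen. *Col1a1* was at 3359, 2812, 2024 and 2013 CPM, *Col3a1* at 3843, 3329, 2723 and 2752 CPM and *Dcn* at 1848, 1410, 1175 and 599.4 CPM in mice 1 to 4. Of 18 collagens outside the rule, 9 were higher and 2 lower without overlap, 3 were higher and 2 lower at an unadjusted p under 0.05, and the median log2 change was 0.25. The shares over all tested genes were 17.4% higher and 16.9% lower without overlap, and 2.51% higher and 3.28% lower at that p. *Col1a2* stood at 3509, 3142, 2665 and 2240 CPM (log2 change 0.44, SE 0.10, adjusted p = 0.443). *Col15a1*, a basement membrane collagen, stood at 185.8, 148.9, 99.2 and 54.1 CPM (log2 change 1.05, SE 0.29, adjusted p = 0.572). *Col12a1*, which lies on collagen fibrils, stood at 129.6, 117.7, 245.1 and 197.7 CPM (log2 change -0.85, SE 0.21, adjusted p = 0.515). The first pair was higher and *Col12a1* lower in both *Trim28*Δ/Δ mice. With a tag share of at least 90%, 6 collagens were higher and 2 lower at an unadjusted p under 0.05 in edgeR, against 444 of all 6231 genes tested there. The median was 0.13 without mouse 1, 0.32 without mouse 3 and 0.15 without mouse 4. When cells needed at least 50 UMIs of the rule, the median over the collagens was -0.10 and *Col1a2* had a log2 change of -0.34. In this setting mouse 4 was left with 7 cells.

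At an unadjusted p under 0.05, 2.51% of all tested genes were higher and 3.28% lower. Of 31 tested matrix glycoproteins and proteoglycans, 5 were higher and 2 lower at an unadjusted p under 0.05, with a median of 0.16. The median was -0.05 with at least 50 UMIs of the rule (14 above and 18 below 0) and 0.06 both without cells holding *Epcam* or *Cdh1* and without mouse 4. Without mouse 3 it was 0.33, with 27 above and 6 below 0. *Vcan*, a large proteoglycan, stood at 278.0, 234.1, 163.0 and 124.9 CPM (log2 change 0.81, SE 0.21, adjusted p = 0.572). *Sparc*, which binds collagen, stood at 1976, 1915, 1652 and 1220 CPM (log2 change 0.44, SE 0.14, adjusted p = 0.699). *Ccn2*, a matricellular growth factor, was lower with 34.6, 29.8, 124.7 and 60.4 CPM (log2 change -1.60, SE 0.36, adjusted p = 0.408). *Postn* stood at 439.3, 256.8, 268.5 and 172.8 CPM (log2 change 0.63, SE 0.28, adjusted p = 0.848), and the genotypes overlapped. Enzymes of collagen assembly and crosslinking had 1 higher and 3 lower of 18 tested and a median of 0.04. Of these, the collagen hydroxylases *P4ha2* (33.1, 35.5, 77.9 and 49.95 CPM) and *Plod2* (102.3, 75.2, 272.8 and 93.7 CPM) are also members of the hypoxia list. Matrix proteases and inhibitors had 2 higher and 1 lower of 14 tested and a median of 0.13. *Adamts5*, a protease of proteoglycans, stood at 31.7, 56.7, 85.0 and 85.3 CPM, *Mmp23* at 73.5, 62.4, 40.4 and 37.5 CPM and the inhibitor *Timp2* at 213.2, 222.7, 158.7 and 135.3 CPM, each without overlap.

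Of 30 tested stromal transcription factors, 4 were higher and 1 lower at an unadjusted p under 0.05 and the median was 0.08. At that p, 2.51% of all tested genes were higher and 3.28% lower. *Tcf21* stood at 694.3, 619.9, 340.1 and 530.7 CPM (log2 change 0.61, SE 0.21, adjusted p = 0.729) and *Prrx1* at 67.7, 56.7, 34.0 and 8.33 CPM (log2 change 1.30, SE 0.43, adjusted p = 0.700). Both were higher in the *Trim28*Δ/Δ mice. In retinoic acid synthesis and response, 0 of 10 tested genes had an unadjusted p under 0.05 in edgeR, and the median was -0.04. The retinoic acid receptor *Rarb* stood at 44.7, 32.6, 46.8 and 27.1 CPM (log2 change -0.03, SE 0.35, adjusted p = 0.996). The enzyme *Aldh1a2* stood at 60.5, 96.5, 87.2 and 166.5 CPM, *Dhrs3* at 85.0, 130.5, 160.1 and 133.2 CPM and the receptor *Rarg* at 21.6, 28.4, 46.8 and 22.9 CPM. Among Wnt ligands, inhibitors and targets, 2 of 17 tested were higher (*Cdkn1c* and *Lef1*) and 1 lower (*Rspo3*), with a median of 0.07. *Dkk1*, given above, is not a member of this list. Of 23 tested signals and receptors, 4 were lower and 0 higher at an unadjusted p under 0.05, and *Igfbp5*, *Pdgfrb* and *Gdnf* had the smallest p. The one-sided count of signals and receptors did not hold without mouse 3 or without mouse 4, and the count of transcription factors moved without mouse 3. The small medians of the other lists turned with single mice, to 0.13 without mouse 3 for retinoic acid and to -0.10 without mouse 1 and -0.09 without mouse 4 for Wnt.

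Genes of the hypoxia response, which are switched on when the hypoxia-inducible factors are stabilised at low oxygen, had the highest number of members lower at an unadjusted p under 0.05 of the gene lists. Of 26 tested members, 26 had a log2 change under 0, 18 were lower at an unadjusted p under 0.05 and 12 were lower without overlap, with a median of -1.0. The shares over all tested genes were 3.28% lower at that p and 16.9% lower without overlap. *Adm*, which encodes the vasodilator adrenomedullin, stood at 10.1, 12.8, 107.0 and 31.2 CPM in mice 1 to 4 (log2 change -2.72, SE 0.56, adjusted p = 0.308). *Ankrd37* stood at 17.3, 11.4, 79.4 and 29.1 CPM (log2 change -2.04, SE 0.49, adjusted p = 0.455), and *Ero1l*, an oxidase of disulfide formation, at 23.1, 22.7, 89.3 and 31.2 CPM (log2 change -1.52, SE 0.45, adjusted p = 0.630). In each, mouse 3 was high and mouse 4 lay closer to the *Trim28*Δ/Δ mice. *Bnip3*, a mitophagy receptor, stood at 72.0, 85.1, 356.4 and 77.0 CPM and thus overlapped, and *Vegfa* at 61.9, 56.7, 189.9 and 64.5 CPM. Without mouse 3, 16 of the 26 had a log2 change under 0 and the median was -0.09. The summed level of all 30 members was 2107, 2299, 5247 and 2354 CPM in stroma, 2227, 2541, 4982 and 2164 CPM in nephron progenitor cells, 2580, 2760, 5017 and 2687 CPM in proximal tubule cells and 2437, 2496, 5528 and 2459 CPM in endothelial cells. Mouse 3 was thus high in all 4 cell sets. Without mouse 4 the median was -1.45. Within the stroma, mouse 3 was high in clusters 1, 2, 3 and 5, with 4816 to 7173 CPM, but not in cluster 4, where mice 1 to 4 had 2117, 1848, 2240 and 1432 CPM. Genes of glycolysis had 11 of 16 tested lower at an unadjusted p under 0.05 and a median of -0.63, which was -0.14 without mouse 3 and -1.03 without mouse 4. Their summed level was highest in mouse 3 in stroma (6474 CPM), nephron progenitor (7785), proximal tubule (8850) and endothelial cells (7389). The hexokinase *Hk2*, which is in both lists, stood at 11.5, 19.9, 132.5 and 14.6 CPM, and *Gpi1* at 109.5, 153.2, 313.9 and 197.7 CPM.

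**Figure D4:**
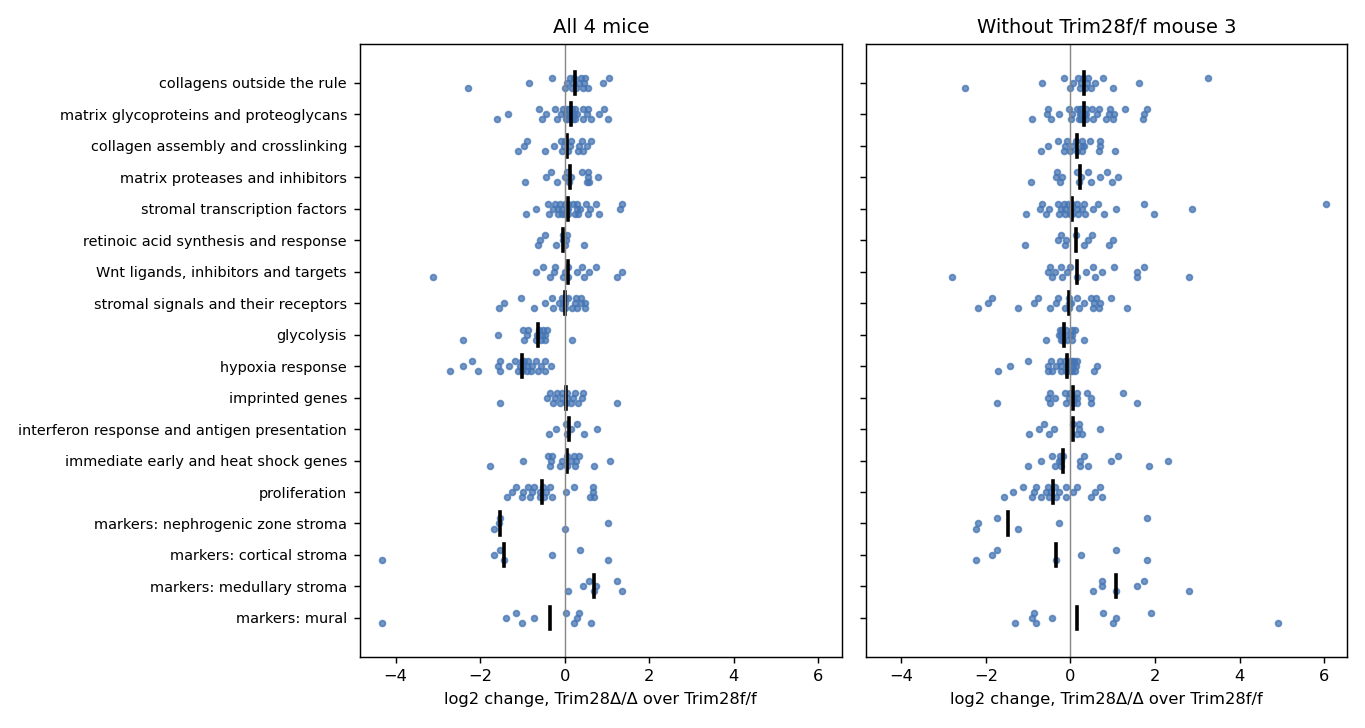
Log2 change of each tested gene of the lists in stroma cells, 1 point per gene, with a bar at the median, for all 4 mice (left) and without *Trim28*f/f mouse 3 (right). The hypoxia response has a median of -1.0 on the left and -0.09 on the right, whereas the medullary markers stay above 0 on both sides.

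The sequences upstream of 3 hypoxia genes are shown because these genes were among the most different between mouse 3 and the others. ACGTG is among the letters that hypoxia-inducible factors bind. They cover 250 bases before the start site in RefSeq on GRCm38.p6, in the direction of transcription, with each ACGTG (or CACGTG where matches of the 2 strands overlap) in capitals.

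*Ankrd37*, chr8:45999851-46000100, minus strand: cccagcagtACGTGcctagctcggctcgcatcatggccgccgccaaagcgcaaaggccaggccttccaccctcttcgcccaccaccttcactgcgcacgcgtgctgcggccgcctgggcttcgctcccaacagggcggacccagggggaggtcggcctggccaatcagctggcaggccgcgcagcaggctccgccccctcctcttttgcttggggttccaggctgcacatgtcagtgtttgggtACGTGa
*Bnip3*, chr7:138909507-138909756, minus strand: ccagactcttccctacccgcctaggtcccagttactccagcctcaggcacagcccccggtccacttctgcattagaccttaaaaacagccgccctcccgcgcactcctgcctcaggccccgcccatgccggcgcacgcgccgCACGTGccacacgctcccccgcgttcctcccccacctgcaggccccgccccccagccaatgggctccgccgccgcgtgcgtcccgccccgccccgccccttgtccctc
*Adm*, chr7:110627407-110627656, plus strand: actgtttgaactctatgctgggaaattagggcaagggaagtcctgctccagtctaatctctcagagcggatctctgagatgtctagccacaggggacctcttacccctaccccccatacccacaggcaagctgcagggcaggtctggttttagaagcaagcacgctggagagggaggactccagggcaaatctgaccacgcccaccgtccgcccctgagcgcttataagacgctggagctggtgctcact

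The *Ankrd37* window held 2 matches, the *Bnip3* window 2 that overlap on opposite strands, and the *Adm* window 0. On either strand, ACGTG was present in 16.6% of 32851 promoters of this length, or in 18.5% of 27025 genes, and in 18 of the 24 hypoxia genes with an entry. *Bnip3l*, *Ndrg1*, *Plod2*, *Ero1l*, *Bhlhe40* and *Epas1* have no entry in the table. A match describes letters and not a bound site, and other forms of the site were not searched.

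Proliferation genes were mostly lower in *Trim28*Δ/Δ stroma. Of 22 tested, 11 were lower and 2 higher at an unadjusted p under 0.05, 15 were lower and 4 higher without overlap, and the median was -0.55. The shares over all tested genes were 3.28% lower and 2.51% higher at that p, and 16.9% lower and 17.4% higher without overlap. The mitotic cyclins *Ccnb1* (50.4, 42.6, 104.1 and 139.5 CPM, log2 change -1.36, SE 0.27, adjusted p = 0.293) and *Ccnb2* (44.7, 49.7, 107.0 and 120.7 CPM) and the centromeric histone *Cenpa* (110.9, 127.7, 209.0 and 210.2 CPM) were low in both *Trim28*Δ/Δ mice. The replication genes *Pcna* (125.3, 133.3, 89.3 and 79.1 CPM) and *Hells* (54.7, 82.3, 41.8 and 45.8 CPM) were the 2 higher ones. The summed level was 2158, 2430, 3558 and 3202 CPM in mice 1 to 4. Most of it came from cluster 1, where it was 6003, 6758, 6996 and 8670 CPM, and outside this cluster it was 1159, 636.4, 700.1 and 780.1 CPM, where mouse 1 was the highest. When a mouse was left out, the median was -0.69 to -0.41. With at least 50 UMIs of the rule, 0 proliferation genes had an unadjusted p under 0.05 in edgeR, and 0 were lower at that level with the looser rule on thinned cells. After thinning, *Mki67* or *Top2a* was detected in 50%, 49.02%, 52.88% and 47.06% of the stroma cells of mice 1 to 4. The means of 49.51% ± 0.6932 and 49.97% ± 4.119 (SD, n = 2 each) gave an exact permutation p of 1 (two-sided). Without thinning the shares were 64.29%, 52.94%, 65.38% and 67.65%. The thinned share was 21.86% in proximal tubule cells, whose proliferation genes were low, 50.67% in endothelial and 58.06% in nephron progenitor cells.

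The imprinted genes as a list had a median of 0.03, with 1 higher (*Cdkn1c*) and 2 lower (*Dlk1* and *H19*) of 19 tested at an unadjusted p under 0.05. At that p, 2.51% of all tested genes were higher and 3.28% lower. The counts of imprinted genes moved without mouse 3, where mouse 4 alone stood for *Trim28*f/f. *H19*, a noncoding RNA, stood at 386.0, 417.1, 498.8 and 582.8 CPM (log2 change -0.43, SE 0.16, adjusted p = 0.790). Its neighbour *Igf2* was at 301.1, 303.6, 318.8 and 312.2 CPM, a log2 change of -0.06. *Meg3* of the *Dlk1* region was at 460.9, 478.1, 419.4 and 333.0 CPM and *Rian* at 74.9, 120.6, 85.0 and 87.4 CPM. For interferon response and antigen presentation, 0 of 8 tested genes had an unadjusted p under 0.05 in edgeR and the median was 0.10. Without mouse 4 the median was 0.57 over 11 tested genes, and the count moved without mouse 3 or mouse 4. *Bst2* stood at 182.9, 160.3, 205.5 and 243.5 CPM and *Ifitm2* at 962.2, 983.1, 680.2 and 926.2 CPM. Of 17 tested immediate early and heat shock genes, 1 was lower, *Ier3*, with 20.2, 17.0, 81.5 and 37.5 CPM, and *Fos* (12.96, 38.3, 63.8 and 31.2 CPM) and *Jund* overlapped. The median of this list was 0.05, but 0.29 without mouse 1, -0.49 without mouse 2 (2 above and 16 below 0) and -0.09 without mouse 4.

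Whether the genotype change in stroma differed from that in other cell sets was tested with an interaction term in edgeR, with the mouse as a block. Against proximal tubule cells, which descend from recombined progenitors, it differed for 29 of 12721 genes (0.228%), against nephron progenitor cells for 9 of 9289 (0.0969%) and against endothelial cells for 4 of 11121 (0.036%). Left-out mice moved these counts. Against proximal tubule cells the count was 48 without mouse 2, 120 without mouse 3 and 426 without mouse 4, and against endothelial cells it was 66 without mouse 3 and 147 without mouse 4. *Trim28* was among the 29. In CPM without TMM scaling it stood at 20.2, 23.2, 64.9 and 79.98 in the proximal tubule cells of mice 1 to 4, a log2 change of -1.71 (adjusted p = 0.00540), and the change in stroma exceeded it by 1.60 (SE 0.24, adjusted p = 0.0107). The imprinted genes were among them as well. The change of *Cdkn1c* in stroma (1.24) and in proximal tubule cells (-1.81) differed by 2.98 (SE 0.22, adjusted p = 7.48e-06). That of *Meg3* was 0.31 in stroma and 3.08 in proximal tubule cells, a difference of -2.79 (SE 0.21, adjusted p = 7.48e-06), and that of *Rian* was 0.18 and 2.70, a difference of -2.54 (SE 0.34, adjusted p = 0.00377). Of 25 imprinted genes tested against proximal tubule cells these 3 passed. Without TMM scaling *Cdkn1c* stood at 55.8, 47.18, 246.8 and 118.5 CPM in the proximal tubule cells of mice 1 to 4. The 3 podocyte markers summed to 9.904, 12.44, 98.24 and 28.09 CPM there, and the part of podocyte RNA in the *Cdkn1c* change was not tested. *Resf1*, a regulator of retroelement silencing, also had a lower change in stroma, by 1.59 on the log2 scale, and *Aqp2* a higher one, by 3.56. *Nat8*, an acetyltransferase, and *Gm11100* differed by -5.51 and -4.34, but both were too low to be tested in stroma alone. They passed the filter on low counts only with the proximal tubule cells included. Without TMM scaling *Nat8* stood at 232.2, 180.8, 27.68 and 26.28 CPM in the proximal tubule cells of mice 1 to 4. In stroma it stood at 4.169, 1.38, 23.29 and 2.01 CPM. *Vcan*, with a log2 change of 0.81 in stroma and -0.68 in proximal tubule cells, differed by 1.47 (SE 0.25, adjusted p = 0.0224). *Aldh1a2* had -0.63 and 1.11, a difference of -1.73 (SE 0.31, adjusted p = 0.0368). *Wnt4* did not pass (difference 2.19, SE 0.45, adjusted p = 0.0758).

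**Figure D5:**
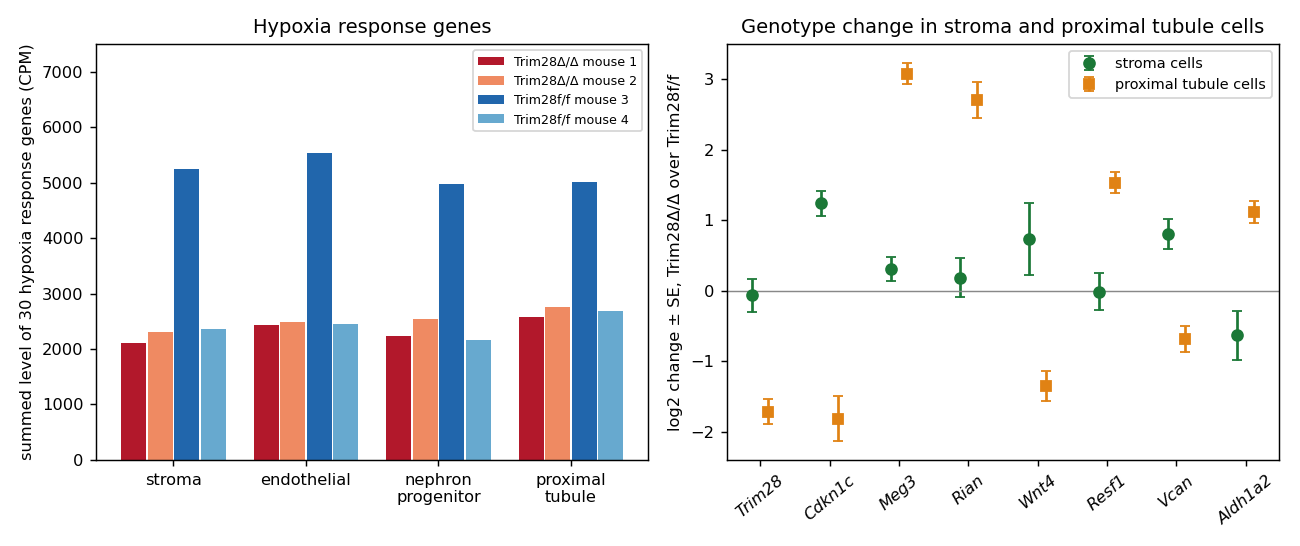
Left, summed CPM of the 30 hypoxia response genes in 4 cell sets of each mouse, with mouse 3 at 4982 to 5528 CPM and the other mice at 2107 to 2760 CPM. Right, log2 change ± SE of named genes in stroma cells (circles) and proximal tubule cells (squares), where *Trim28*, *Cdkn1c*, *Meg3*, *Rian*, *Resf1*, *Vcan* and *Aldh1a2* passed the test of a difference and *Wnt4* did not.

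Against endothelial cells, which like most stroma do not descend from *Six2*-positive cells, *Mgp*, *Fbln5*, *Vcan* and *Nts* differed. *Mgp*, an inhibitor of calcification, stood at 913.3, 1911, 2014 and 1842 CPM in stroma (log2 change -0.45). In endothelial cells it stood at 343.5, 240.5, 33.59 and 12.89 CPM without TMM scaling (log2 change 3.46, adjusted p = 0.611 in edgeR). The difference, stroma minus endothelial, was -4.07 on the log2 scale. For *Fbln5* the log2 change was 0.22 in stroma and 2.11 in endothelial cells, so that for both genes the larger change was that in endothelial cells. *Trim28* did not pass there (difference -0.08, SE 0.25, adjusted p = 1), nor did any of 22 imprinted genes. Against nephron progenitor cells the 9 genes included *Mest*, *Cdkn1c*, *Epcam*, *Atp1b1*, *Ccnd2*, *Ttc28*, *Nfib* and *Tpm2*. *Trim28* did not pass against nephron progenitor cells either (difference 1.36, SE 0.48, adjusted p = 0.369). In mice 1 and 2 these sets held only 5 and 4 nephron progenitor cells, so that the comparison rests on few cells. These sets also held RNA of other cell types, with collecting duct markers at 336.6, 3523, 373.1 and 286.6 CPM and proximal tubule markers at 1985, 127, 498.6 and 414 CPM in mice 1 to 4, and the part of this RNA in the differences of *Epcam* and *Atp1b1* was not tested. The count was 254 without mouse 1, 274 without mouse 2, 0 without mouse 3 and 28 without mouse 4.

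Cluster 2 was the only cluster with at least 10 cells in every mouse. In it 0 of 2800 genes passed in edgeR (0%) and 122 had an unadjusted p under 0.05 (4.36%), and DESeq2 called 0 genes with 43 at an unadjusted p under 0.05. The edgeR count was 10 without mouse 1, 5 without mouse 2, 10 without mouse 3 and 95 without mouse 4. The smallest p belonged to *Ndufa4l2*, which encodes a mitochondrial protein (log2 change -1.87, SE 0.38). The 10 genes with the smallest p also held *Adm* (-3.29, SE 0.69), *Ccn2* (-1.94, SE 0.48), *Abcc9* (-2.45, SE 0.61), *Rgs5* (-1.30, SE 0.33) and *Kcnj8* (-2.32, SE 0.61), of which *Abcc9* and *Kcnj8* were also among the 10 of all stroma cells. In this cluster *Adm* stood at 23.61, 12.88, 256.3 and 74.3 CPM in mice 1 to 4. The hypoxia response genes summed to 2314, 2060, 5639 and 2469 CPM there, with mouse 3 the highest. The part of mouse 3 in the change of *Ndufa4l2* was not tested. *Hbb-bt*, a beta globin, had a log2 change of 3.07 (SE 0.79). In all stroma cells it stood at 141.2, 873.8, 148.8 and 112.4 CPM, and the 5 erythroid markers summed to 1206, 7463, 2374 and 2193 CPM, so that only mouse 2 was high. A single cell of mouse 2 gave 459 of the 978 *Hbb-bt* UMIs of all stroma cells (46.93%). In the free RNA the same markers summed to 32210 CPM, and their part in the values of cluster 2 was not tested.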

How the data were processed

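The authors processed the reads with Cell Ranger (version 6.0.0 in the submitters' processing notes) and deposited UMI counts of 32285 genes and of the tags for all barcodes, neither normalized nor filtered. The 6 bulk samples were not analysed here. Cells held at least 6890 UMIs (the order-of-magnitude rule of Cell Ranger, at the cell recovery stated in the labels) and 200 genes, at most 10% mitochondrial UMIs, and a tag with at least 50 counts and 80% of the counts of tags CMO301 to CMO308. The mouse was the replicate, and the sources used do not say whether littermates were taken. Summed counts were filtered by filterByExpr, scaled by TMM and then compared by glmQLFTest in edgeR 4.0.16 (R 4.3.3; Benjamini-Hochberg over all genes, threshold 0.05), with DESeq2 1.42.0 as an alternative; the fits were tested on simulated data. SE is the log2 change over the root of F. Comparison sets were nephron progenitor (*Six2*, *Cited1* and *Eya1*, at least 10 UMIs), proximal tubule (*Slc34a1*, *Lrp2*, *Fbp1* and *Spp2*, 40) and endothelial cells (the endothelial genes of the rule, 20), without stroma cells. Clusters came from scanpy 1.11.5 (2000 variable genes, 20 principal components, resolution 0.5), and log2 ratios used 10 added CPM. Shares were compared by exact permutation in scipy 1.17.1. Named genes were the 10 with the smallest p on one side in both mice, the 3 of each list with the smallest p, markers and leading genes; *Bnip3*, *Vegfa*, *Col8a1* and others outside this rule were chosen after their values were seen. The members and lists were chosen with earlier results of these data known. Alternatives were other rule thresholds, tag purity, doublet, epithelial and mitochondrial filters, RLE scaling, no filter and leaving out each mouse. A few genes that meet these rules are not reported here. Positions are from GENCODE M21.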

Additional observations from a re-analysis of the deposited data

Results flagged for a closer look

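In all, 42 gene and cell set pairs passed the interaction test of edgeR, in which the genotype change in stroma is compared with that in another cell set. The 30 pairs given here are the 5 with the smallest p for each set, the members of the gene and marker lists and genes named above, with the difference in log2 change, stroma minus the other set. Against proximal tubule cells the positive differences were those of *Hspa1a* (4.35), *Aqp2* (3.56), *Cdkn1c* (2.98), *Kap* (2.84), *Serpinf1* (2.52), *Fmo2* (2.04), *Trim28* (1.60) and *Vcan* (1.47). *Hspa1a* stood at 1.905, 3.284, 48.59 and 2.719 CPM in the proximal tubule cells of mice 1 to 4, so that only mouse 3 was high. For *Cdkn1c*, the podocyte markers in these sets are given above. The negative ones were those of *Nat8* (-5.51), *Gm11100* (-4.34), *Meg3* (-2.79), *Rian* (-2.54), *Rgs5* (-2.33), *Ccn2* (-2.04), *Tagln* (-1.92), *Aldh1a2* (-1.73), *Resf1* (-1.59) and *Nfia* (-1.22). In proximal tubule cells the 10 mural markers, with *Rgs5* and *Tagln*, summed to 106.3, 150.4, 87.89 and 49.38 CPM in mice 1 to 4. The free RNA held 429.5 CPM of them, and its part in these 2 differences was not tested. Against nephron progenitor cells they were *Mest* (2.26), *Cdkn1c* (2.69), *Epcam* (-2.15), *Atp1b1* (-2.14), *Ccnd2* (3.28), *Ttc28* (2.47), *Nfib* (-3.06) and *Tpm2* (2.28), with only 5 and 4 progenitor cells in the *Trim28*Δ/Δ mice and the RNA of collecting duct and proximal tubule in these sets given above. Against endothelial cells they were *Mgp* (-4.07), *Fbln5* (-1.93), *Vcan* (1.73) and *Nts* (3.90), of which *Nts* had 277 UMIs in mouse 1 and 42, 38 and 2 in mice 2 to 4. None of these genes passed an adjusted p of 0.05 in edgeR in stroma alone (*Gm11100*, *Nat8* and *Kap* were too low to be tested there), where 0 genes passed and 475 had an unadjusted p under 0.05, and DESeq2 called 4. Of the *Aqp2* UMIs 55.15% came from 1 cell of mouse 2.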

How the results depend on the processing

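No paired analysis was possible because the mice of the 2 genotypes share no replicate numbers. With 2 mice a genotype, the edgeR count of genes in stroma was 0 in all changes of the cell rule except without Scrublet doublets (3), was 4 by DESeq2 and 119 without a filter on low counts, and ranged from 27 to 480 when a mouse was left out, in which the lone mouse is assumed to vary like the pair. For the differences against nephron progenitor, proximal tubule and endothelial cells, no filter gave 227, 198 and 69 genes and leaving out a mouse 0 to 274, 32 to 426 and 3 to 147, and RLE scaling gave 16 genes against proximal tubule cells. Within cluster 2 no filter gave 25 genes and leaving out a mouse 5 to 95. The difference in cycling share turned positive with at least 15 (0.6505) or 50 UMIs of the rule (9.654), without mouse 2 (0.02828) and without mouse 3 (2.451). Over the mice left out it ranged from -3.375 to 2.451 percentage points, and the difference in cluster share from -17.72 to 0.3825 for cluster 2, -5.628 to 12.96 for cluster 3 and -1.943 to 16.78 for cluster 5. Of 688 log2 changes of 50 named genes under the alternatives, 556 kept their direction and their side of the threshold, 116 of 41 genes kept their direction and passed, and 16 turned. With the cells of at least 50 UMIs of the rule these were *Trim28* (0.0491), *Rarb* (0.0040), *Col1a2* (-0.342), *Aldh1a2* (0.324) and *Igfbp5* (0.0062). *Rarb* turned also by DESeq2 (0.0165), without epithelial cells (0.0870) and at 5% mitochondrial UMIs (0.0901), and *Bst2* at 15 UMIs (0.0434) and at 90% tag purity (0.0151). Over the mice left out, the log2 change ranged from -0.245 to 0.0638 for *Trim28*, from -0.295 to 0.510 for *Rarb*, from -0.919 to 0.126 for *Rarg*, from -3.08 to 0.108 for *Hk2* and from -0.0326 to 0.621 for *Jund*. The cause of these turns was not tested. Depth limits genes with few UMIs per mouse, such as *Rspo3* and *Gdnf*.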

Other observations

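Markers of other cell types in the stroma cells can be set against the free RNA. The 6 immune markers summed to 26.4, 27.6, 85.7 and 24.1 CPM in the stroma of mice 1 to 4 and to 202.2 CPM in the free RNA. The 3 podocyte markers summed to 9.73, 20.7, 23.3 and 18.1 CPM against 64.7 CPM, and *Sox10* of glia was at 0 UMIs. The 7 proximal tubule markers summed to 400.2, 241.5, 800.9 and 221.1 CPM against 1445 CPM, with mouse 3 the highest. Among collagens with few UMIs, *Col8a1* had 0, 6, 28 and 12 UMIs in mice 1 to 4.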
